A study of Mus musculus with 15 samples.

Results

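Granulocytic myeloid-derived suppressor cells (G-MDSC) from the spleens of tumor-bearing mice were compared here with naïve neutrophils (NN) from the bone marrow. The comparison held the 4 arrays titled G-MDSC and the 7 titled NN, of 15 arrays in all. The members were chosen by title alone, and every kept probe of the arrays entered the tests. All mice were BALB/c, and the age and sex of the mice are not given in the sources used here. G-MDSC came from hosts of AB12, a mouse mesothelioma line grown in the flank, when the tumors measured 500 to 700 mm3 at some 21 to 25 days. NN came from animals with no tumor. Each array held the RNA of 2 to 4 pooled mice, so that an array is a pool. Nothing in the labels states whether the pools of a group were made on separate days, and p-values measure the spread between pools.

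Preparation differed with the population. By the study's methods, NN were flushed from femurs and tibias and separated on a discontinuous Percoll gradient. Spleens were digested, enriched with beads against CD11b and sorted by flow cytometry for CD11b and Ly6G, with a stated purity above 85%. The labels instead give bead enrichment and a Ly6G sort for every sample. Organ, tumor and, by the methods, preparation all change together between the groups, and these cannot be told apart. Splenic neutrophils of naïve mice and marrow neutrophils of tumor-bearing mice are not among the samples used here.

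Neutrophils are made in the bone marrow from dividing precursors. As they mature they fill first azurophil, then specific and then gelatinase granules, and they stop dividing before release. G-MDSC are Ly6G+ cells that accumulate in tumor-bearing hosts and are named for their capacity to suppress T cells, through arginase, reactive oxygen species and nitric oxide among other routes. A neutrophil that meets cytokines, microbial products or mechanical stress induces a set of early genes within minutes, through MAP kinases and the transcription factor NF-κB, and these genes in turn encode transcription factors, feedback inhibitors and secreted signals.

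Values are log2 signals of the array after background correction and quantile normalization, and a difference is the mean of G-MDSC minus the mean of NN. A gene rose or fell in G-MDSC where limma gave a Benjamini-Hochberg adjusted p under 0.05 over all 16316 kept probes, fitted on the 11 arrays. Of 11075 named genes, 5174 were called, 46.7% of those tested. Of these 2550 rose (23.0%) and 2624 fell (23.7%), so that a list of genes has to be read against nearly even background shares. Over all probes 7416 (45.5%) were called, of which 3743 rose (22.9%) and 3673 fell (22.5%), 50.5% of the calls being higher, against 4170 and 2454 (63.0% higher) when arrays were instead scaled to a common median. The median difference over all genes was -0.01. The groups did not overlap for 3731 genes (33.7%), 1835 of them higher in G-MDSC (16.6%) and 1896 lower (17.1%). Large differences were less frequent: 637 genes rose (5.75%) and 743 fell (6.71%) at least 2-fold, 152 rose (1.37%) and 204 fell (1.84%) at least 4-fold, and 12 rose (0.108%) and 23 fell (0.208%) at least 16-fold. At the 1.7-fold size used in the study, 2836 probes (17.4%) were called, 1394 higher (8.54%) and 1442 lower (8.84%).

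**Figure D1:**
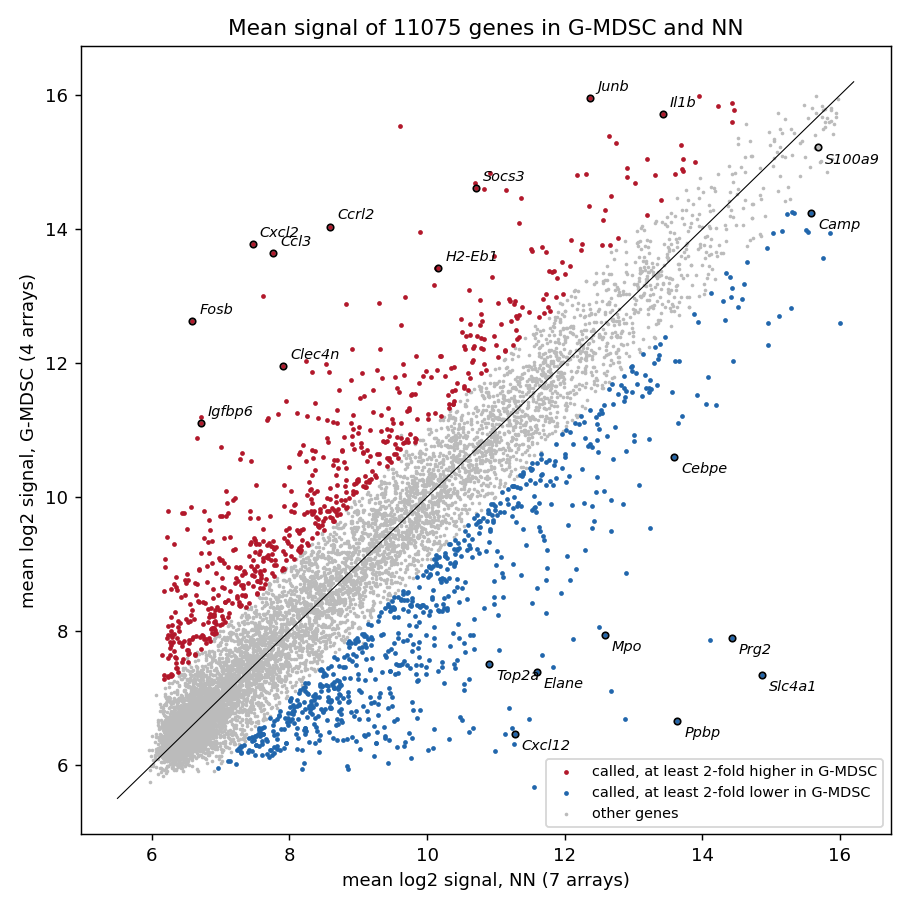
Mean log2 signal of each of 11075 named genes in G-MDSC (vertical axis, n = 4 arrays) against NN (horizontal axis, n = 7 arrays), with genes that were called and at least 2-fold apart coloured red where higher in G-MDSC and blue where lower. Most genes lie near the diagonal, with 152 called genes at least 4-fold above it and 204 at least 4-fold below.

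2 properties of the arrays touch these counts. All G-MDSC and NN 6 and 7 had a median background signal of 105 to 114, while NN 1 to 5 had 76.2 to 91.9. Within the 6 arrays of high background, 3234 genes (29.2%) were called, 1544 higher (13.9%) and 1690 lower (15.3%). Of the 5174 genes called over all 11 arrays, 3025 were also called there in the same direction, 29 had the opposite sign and 0 were called the opposite way. The other property is G-MDSC 1, in which 625 genes lay over 2-fold from the mean of the remaining G-MDSC, against 44 to 76 genes in those arrays and 2 to 31 in NN. Without G-MDSC 1, 5469 genes (49.4%) were called, and 4786 of the 5174 were among them with the same sign. Counts within the arrays of high background are therefore given beside the lists of gene function.

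Markers of neutrophils were high in both groups. The 17 measured neutrophil markers had a list mean of 13.68 to 13.77 in G-MDSC, against 13.67 to 13.88 in NN, and 6 rose and 8 fell. Ly6g, on which the cells were sorted, has no probe among those kept, so its level is not given. Markers of other cells moved with the groups. All 15 red blood cell markers fell (median difference -3.79), as did 12 of 15 platelet and megakaryocyte markers (-3.43), 10 of 14 eosinophil and basophil markers (-1.09) and 9 of 16 endothelial and stromal markers (-0.49). The list mean of the red blood cell markers was 7.02 to 7.37 in G-MDSC, against 10.64 to 11.04 in NN. Macrophage and monocyte markers differed little in their list mean, at 8.89 to 9.32 in G-MDSC, against 8.79 to 9.46 in NN, and 5 of 16 rose and 3 fell.

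Lymphocyte markers set G-MDSC 1 apart. The 14 B cell markers had a list mean of 10.15 in G-MDSC 1 and 7.52 to 7.71 in G-MDSC 2 to 4, against 8.22 to 8.85 in NN. The 20 T and NK cell markers had 9.11 in G-MDSC 1 and 7.06 to 7.11 in G-MDSC 2 to 4, against 7.12 to 7.28 in NN. Cd79a, a signalling chain of the B cell receptor, had 12.57, 7.66, 7.69 and 8.35 in G-MDSC 1 to 4, against 9.32 to 10.73 (median 10.11) in NN. Its difference was -0.99 (adjusted p = 0.289) and -2.16 without G-MDSC 1 (adjusted p = 3.3e-06). Without that array, 7 of 14 B cell markers were lower in G-MDSC and 2 higher. Of 7 plasma cell markers 3 rose and 0 fell, and 2 rose and 2 fell without G-MDSC 1. Dendritic cell markers had a list mean of 8.28 in G-MDSC 1 and 7.47 to 7.84 in G-MDSC 2 to 4, against 6.97 to 7.11 in NN, with 7 of 13 called higher over all arrays and 3 within the arrays of high background. In these RNA pools, fewer cells of a type and less RNA per cell cannot be told apart.

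Of 62 lists of functions, those of the early transcriptional response had the largest shares of members that rose after MHC class II presentation (93.8%): AP-1 genes 84.6%, immediate early genes 81.8% and NF-κB genes 80.0%, beside 23.0% over all genes. AP-1 is a dimer of Fos, Jun and related bZIP proteins that is built within minutes of a stimulus. Of 13 measured AP-1 genes, 11 rose and 2 fell, with a median difference of 2.34 and, within the arrays of high background, 9 rose and 1 fell. Outside AP-1, 27 of 33 immediate early genes rose and 0 fell (median 1.11), and 23 rose within the arrays of high background.

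Fosb, a member of the Fos family, had 14.20, 11.86, 11.64 and 12.80 in G-MDSC 1 to 4, against 6.14 to 7.33 (median 6.46) in NN. Its difference of 6.04 (standard error 0.39, adjusted p = 2.5e-08) exceeded the spread of either group, and G-MDSC 1 was the highest array. Atf3, a stress-induced member that can also repress its targets, had 13.44, 9.84, 10.60 and 10.89 in G-MDSC 1 to 4, against 6.57 to 6.87 (median 6.71) in NN, and its difference was 4.48 (standard error 0.47, adjusted p = 3.3e-06) and 3.73 without G-MDSC 1. Junb, by contrast, was even across the group, with 16.01, 15.81, 16.01 and 15.98 in G-MDSC 1 to 4, against 12.17 to 12.79 (median 12.30) in NN and a difference of 3.59 (standard error 0.12, adjusted p = 6.8e-11). The NN themselves held much Junb and Fos signal, while Fosb was above background in 3 of 7 NN. Fos had 15.39, 15.43, 15.37 and 15.38 in G-MDSC 1 to 4, against 11.93 to 13.73 (median 12.46) in NN, with no overlap and a difference of 2.76. The values of Junb lie near the top of the signal range, where differences are compressed.

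The remaining AP-1 genes spanned a wide range. Jund rose by 2.95 and Jun by 2.73, and Batf3 and Batf, which pair with Jun proteins in leukocytes, rose by 2.34 and 1.86. Mafg and Jdp2 fell by 1.02 and 0.37, both with overlap between the groups, and the call of Jdp2 ended within the arrays of high background (with adjusted p = 0.141) and without G-MDSC 2, 3 or 4. That of Mafg ended with each array scaled to its median.

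Among the immediate early genes, Egr1, a zinc finger factor induced by MAP kinase signals, had 15.60, 15.41, 15.62 and 15.56 in G-MDSC 1 to 4, against 8.63 to 11.72 (median 8.83) in NN. All G-MDSC lay above all NN, and the difference was 5.94 (standard error 0.52, adjusted p = 5.1e-07). NN were far less even for this gene (SD 1.21) than G-MDSC (SD 0.10), whose values lie near the top of the signal range, where differences are compressed. Ier3, a regulator of survival, had 14.69, 14.35, 14.70 and 14.65 in G-MDSC 1 to 4, against 10.60 to 11.13 (median 10.83) in NN and rose 13.7-fold. Csrnp1, a nuclear factor induced by AXIN1, rose by 3.46, the stress-responsive kinase gene Plk3 by 3.31 and Egr2 by 3.28. Among the 6 members that did not pass, the differences were -0.01 for Trib1, with Myc at 0.10, Egr3 at 0.01, Nr4a3 at 0.01 and Arc at 0.08. Myc had 6.16 to 7.15 in G-MDSC, against 6.29 to 6.65 in NN, close to background in both groups.

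Promoter sequences of this group are shown because members of 4 lists (AP-1, immediate early, NF-κB and chemokine genes) rose together over 4-fold. Of 31 such genes, Egr1 not being among those searched, 27 had a promoter window in RefSeq (GRCm38.p6), and the 250 bases before the start were searched on both strands. The κB motif, the binding pattern of NF-κB, was found in 9 of 27 windows (33.3%), against 3.75% of 27025 genes with a window. The half-site TGACG, bound by CREB and ATF proteins, was in 12 (44.4%) against 17.9%, and the AP-1 pattern TGANTCA in 4 (14.8%) against 6.87%. TGACG lies within the full palindromic CRE site, which 1 window held (3.70% against 1.62%). These are matches of letters and no measure of binding, and the genes were chosen for their rise. They also came from lists that hold NF-κB inhibitors, which NF-κB itself induces. The comparison was with all genes that had a window, not with members of these lists that did not rise. The shares are therefore no test of the part of NF-κB. The CCAAT box, searched as CCAAT, was in 6 of 27 windows (22.2%) against 34.5%. The 4 windows that follow are those of a chemokine, an NF-κB inhibitor with the motif near the start, an NF-κB feedback gene with a pair of matches and an AP-1 gene. Capitals mark matches of the κB motif on either strand and of TGACG. The letters are those of the printed strand, 5′ to 3′, so a κB match on the other strand appears as its reverse complement.
Cxcl2, chr5:90903649-90903898, plus strand: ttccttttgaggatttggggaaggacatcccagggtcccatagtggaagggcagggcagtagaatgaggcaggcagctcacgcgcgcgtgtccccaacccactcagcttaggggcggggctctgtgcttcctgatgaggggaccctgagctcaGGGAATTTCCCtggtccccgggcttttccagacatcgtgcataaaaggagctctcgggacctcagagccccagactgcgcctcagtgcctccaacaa
Nfkbia, chr12:55492648-55492897, minus strand: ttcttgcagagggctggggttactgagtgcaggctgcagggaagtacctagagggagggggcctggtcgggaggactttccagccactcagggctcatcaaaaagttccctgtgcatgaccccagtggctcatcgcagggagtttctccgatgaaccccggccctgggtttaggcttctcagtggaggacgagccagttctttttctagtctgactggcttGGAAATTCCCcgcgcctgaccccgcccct
Tnfaip3, chr10:19015411-19015660, minus strand, the first of 2 windows: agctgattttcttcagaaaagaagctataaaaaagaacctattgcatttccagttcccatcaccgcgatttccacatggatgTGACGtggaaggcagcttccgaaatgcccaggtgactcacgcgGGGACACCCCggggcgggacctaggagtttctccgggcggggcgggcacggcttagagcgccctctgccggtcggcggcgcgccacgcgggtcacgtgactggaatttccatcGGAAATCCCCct
Fos, chr12:85473640-85473889, plus strand: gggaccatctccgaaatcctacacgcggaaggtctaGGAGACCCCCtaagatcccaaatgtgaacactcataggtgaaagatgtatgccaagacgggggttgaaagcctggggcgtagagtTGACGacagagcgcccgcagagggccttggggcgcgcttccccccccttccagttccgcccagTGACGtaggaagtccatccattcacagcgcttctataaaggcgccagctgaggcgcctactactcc

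NF-κB is held in the cytoplasm by IκB proteins, whose genes it induces in turn. Of 20 measured NF-κB subunits and feedback inhibitors, 16 rose and 0 fell (median 1.54), and 15 rose within the arrays of high background. The inhibitors led. Tnfaip3, which encodes the deubiquitinase A20, had 14.08, 11.98, 12.69 and 12.79 in G-MDSC 1 to 4, against 8.54 to 9.02 (median 8.82) in NN. The groups did not overlap and the difference was 4.07 (standard error 0.28, adjusted p = 4.5e-08). Nfkbia, the IκBα gene whose window is shown above, had 15.08, 14.53, 14.99 and 14.69 in G-MDSC 1 to 4, against 11.61 to 12.85 (median 12.43) in NN. It rose by 2.52 (standard error 0.22, adjusted p = 4.4e-07), and the NN were already well above background. The nuclear IκB gene Nfkbiz rose by 3.92 and Nfkbib by 2.48. Birc2 and Cyld were among the 4 that did not pass, with differences of 0.26 and 0.16.

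Upstream of these factors, kinases and phosphatases moved apart. Of 35 measured MAP kinase genes and dual-specificity phosphatases, 11 rose and 6 fell (median 0.08, and 9 rose and 4 fell within the arrays of high background). The rises were led by Dusp2, at 3.55, and Dusp16, at 3.49, which remove phosphate from MAP kinases, by the kinase gene Map3k8 (2.63) and by Dusp1 (1.61). Dusp16 had 11.53, 11.05, 11.01 and 11.14 in G-MDSC 1 to 4, against 7.57 to 7.86 (median 7.67) in NN, a tight group in each population. The largest falls were of Mapkapk3 (-1.26), a kinase that acts below p38, Map4k4 (-0.97) and Mapk13 (-0.96, adjusted p = 0.0760 within the arrays of high background).

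In the pathway of cytokine receptors, 14 of 20 SOCS, JAK and STAT genes rose and 1 fell (median 0.61), with 10 rose and 0 fell within the arrays of high background. Socs3, which inhibits signals of G-CSF and IL-6 receptors, had 14.38, 14.83, 14.65 and 14.61 in G-MDSC 1 to 4, against 10.47 to 11.08 (median 10.66) in NN. Its difference of 3.91 (standard error 0.13, adjusted p = 6.8e-11) came with an SD of 0.19 in G-MDSC and 0.23 in NN, and no array overlapped. Jak2 rose by 1.56, Stat2 by 1.41 and Cish by 1.31. Cish had a difference of 1.21 within the arrays of high background (with adjusted p = 0.0580).

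**Figure D2:**
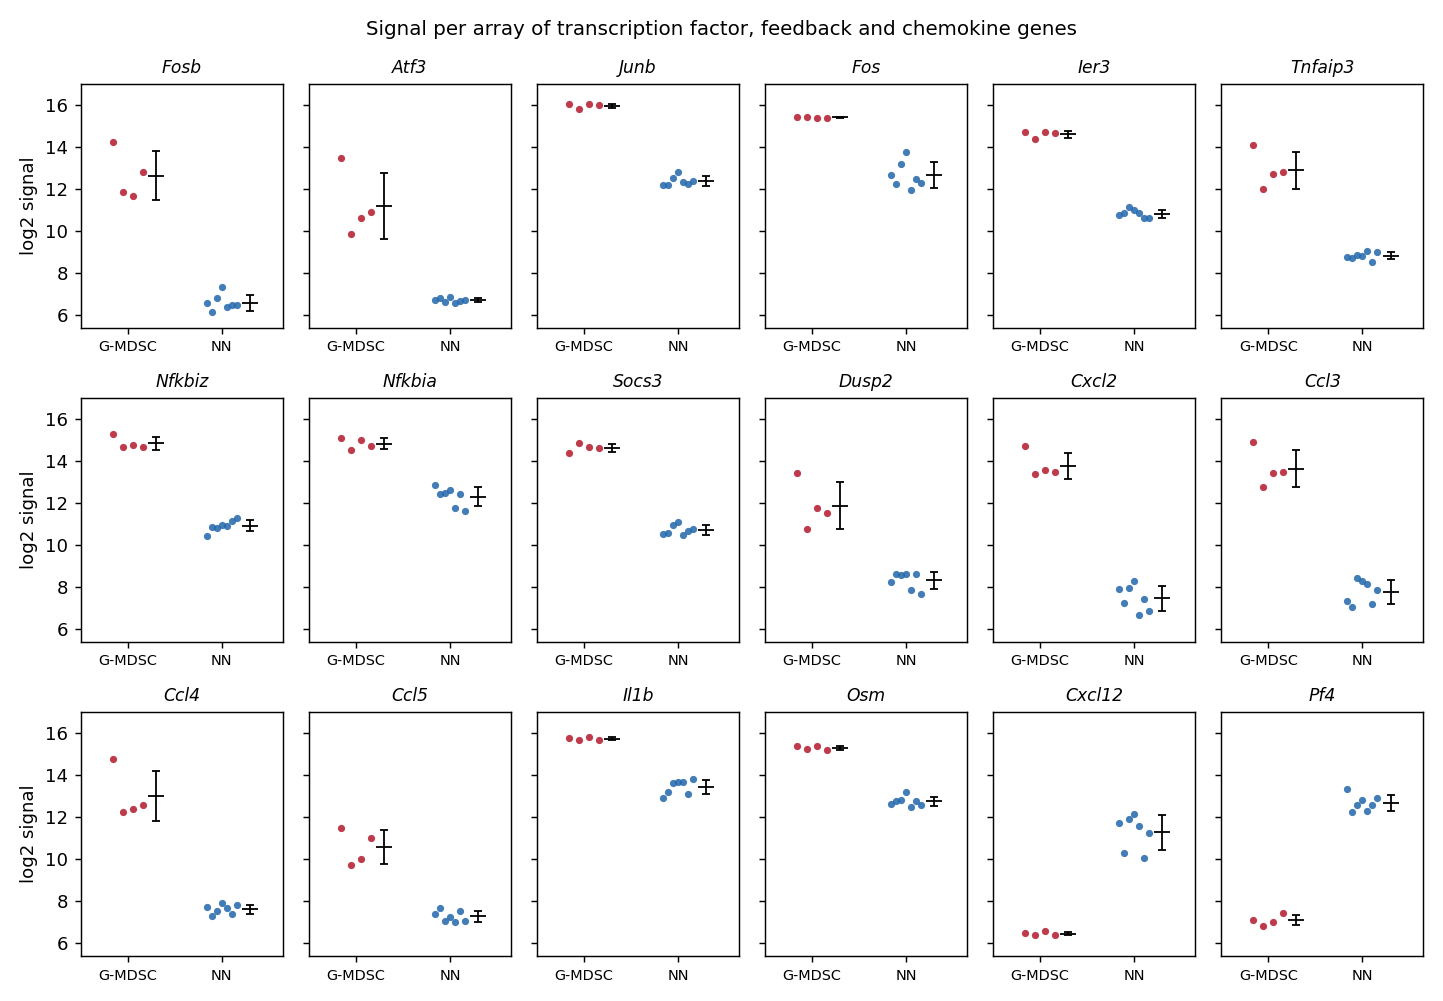
Log2 signal of 18 genes of the early response, its feedback inhibitors and secreted signals in each array (Cxcl12 and Pf4 among them as chemokines that fell), G-MDSC in red (4 arrays) left of NN in blue (7 arrays), with bars at the mean ± SD. G-MDSC 1, the leftmost red point of each panel, was the highest G-MDSC for Fosb (14.20) and Atf3 (13.44), while Junb was nearly the same in all G-MDSC (15.81 to 16.01).

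Secreted signals followed. Chemokines guide leukocytes, and of 27 measured genes 13 rose and 5 fell, with 9 and 5 within the arrays of high background. Cxcl2, a neutrophil attractant, had 14.70, 13.36, 13.55 and 13.48 in G-MDSC 1 to 4, against 6.65 to 8.28 (median 7.41) in NN, the largest rise over all 11 arrays at 6.31 (standard error 0.32, adjusted p = 3.3e-09), while within the arrays of high background the rise of Egr1 was larger (6.89, against 6.64 for Cxcl2). Ccl3 and Ccl4, attractants of monocytes and T cells whose sequences are near copies of a gene family, had differences of 5.88 and 5.38. Ccl3 had 14.91, 12.78, 13.41 and 13.45 in G-MDSC 1 to 4, against 7.03 to 8.45 (median 7.88) in NN. For these 3 genes G-MDSC 1 was the highest array, and without it the differences were 5.997, 5.45 and 4.79.

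Other chemokines were less even. Ccl5 rose by 3.29 and Ccl9 by 2.43. Cxcl1, another neutrophil attractant, had 12.04, 7.76, 8.55 and 8.86 in G-MDSC 1 to 4, against 6.002 to 6.59 (median 6.29) in NN. It rose by 2.98 (standard error 0.57, adjusted p = 7.1e-04), but G-MDSC 1 lay far above the others, the difference without it was 2.06, and within the arrays of high background the adjusted p was 0.0832. The falls were of Ppbp (-6.98) and Pf4 (-5.58), chemokines stored in platelets, and of Cxcl12 (-4.81), made by marrow stroma. Ppbp and Pf4 are themselves among the platelet markers given above and Cxcl12 among the stromal ones, so those lists add no separate support. The part of such cells in these values was not tested. Cxcl14 lay under background in every G-MDSC and was at least 1.54-fold lower. Cxcl3, Ccl8 and Cxcl9 did not pass (-0.03, -0.10 and 0.11).

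In the interleukin 1 family and the inflammasome that matures it, 13 of 19 genes rose and 1 fell (median 0.64), and 10 rose within the arrays of high background. Il1b had 15.76, 15.65, 15.81 and 15.67 in G-MDSC 1 to 4, against 12.89 to 13.80 (median 13.64) in NN. It rose by 2.30 (standard error 0.16, adjusted p = 6.1e-08) and the NN already had a high level. Mefv, which encodes the inflammasome sensor pyrin, rose by 3.30, the accessory receptor gene Il1rap by 2.67 and the decoy receptor gene Il1r2 by 2.35. Pycard, the inflammasome adaptor, fell by 0.31, with overlap, and its call ended within the arrays of high background (with adjusted p = 0.338) and without G-MDSC 1 (adjusted p = 0.0509). Il1a had a difference of 0.04 (adjusted p = 0.717).

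TNF superfamily members and receptors divided, with 11 rising and 5 falling of 29 (median 0.32, and 8 rose and 3 fell within the arrays of high background). Tnf itself had 12.67, 10.97, 12.11 and 11.44 in G-MDSC 1 to 4, against 8.89 to 10.14 (median 9.39) in NN. The groups did not overlap and the difference was 2.26 (standard error 0.30, adjusted p = 3.1e-05). Tnfsf14 rose by 1.66 and the receptor gene Cd40 by 1.44, while Tnfsf13b, the B cell survival factor BAFF, fell by 1.15, Tnfrsf21 by 0.96 and Tnfrsf14 by 0.67. Tnfrsf1b had 6.79, 8.65, 9.07 and 8.43 in G-MDSC 1 to 4, against 6.65 to 7.08 (median 6.83) in NN, with G-MDSC 1 at the level of NN. Its difference of 1.37 became 1.85 without that array, and it did not pass in the arrays of high background alone (1.15, adjusted p = 0.202).

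Of 30 other cytokine and growth factor genes, 10 rose and 3 fell (median 0.06), and 5 rose and 1 fell within the arrays of high background. Csf1, the macrophage growth factor, had 10.71, 8.88, 9.17 and 9.27 in G-MDSC 1 to 4, against 6.49 to 7.22 (median 6.84) in NN and rose by 2.66. Osm, an IL-6 family cytokine, had 15.37, 15.22, 15.38 and 15.20 in G-MDSC 1 to 4, against 12.48 to 13.18 (median 12.74) in NN and rose by 2.55, with no overlap in either gene. Il15 rose by 1.66 and Il23a, below background in all NN, was at least 1.71-fold higher (adjusted p = 0.00165, and 0.138 in the arrays of high background alone). Pdgfa fell, at -0.79. Il6 and Vegfa did not pass (0.15 and -0.09), and another probe of Vegfa was called the opposite way to the one given. In the TGF-β pathway 11 of 28 genes rose and 5 fell (4 rose and 5 fell within the arrays of high background), and Inhba, an activin subunit, had the largest value at -2.97.

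Sensing receptors of the cell surface rose more often than they fell. Of 26 Toll-like receptors and adaptors, 16 rose and 2 fell (median 0.69), and 13 rose and 2 fell within the arrays of high background. Tlr1, which senses bacterial lipopeptides together with TLR2, had 10.82, 11.37, 11.15 and 11.28 in G-MDSC 1 to 4, against 7.52 to 7.93 (median 7.63) in NN. Cd14, the coreceptor for lipopolysaccharide, had 14.16, 13.04, 13.13 and 13.36 in G-MDSC 1 to 4, against 9.94 to 10.53 (median 10.08) in NN. Neither gene overlapped between the groups, and the differences were 3.49 (standard error 0.11, adjusted p = 6.2e-11) for Tlr1 and 3.30 (standard error 0.18, adjusted p = 7.4e-09) for Cd14. Ly86 rose by 2.41 and Tlr6 by 1.77. The falls were of Lbp, the lipopolysaccharide transfer protein (-1.13), and Irak3, an inhibitory kinase of the pathway (-0.73).

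C-type lectins and TREM receptors bind sugars and other ligands. Of 26, 13 rose and 7 fell (median 0.25, and 11 rose and 5 fell within the arrays of high background). Clec4n, which encodes Dectin-2, had 11.79, 11.98, 12.15 and 11.91 in G-MDSC 1 to 4, against 7.50 to 8.33 (median 8.07) in NN and rose by 4.05 (standard error 0.16, adjusted p = 3.7e-10). Clec4a3 rose by 2.38 and Clec4a1 by 2.11, members of a family of close copies whose probes may share signal. Treml1, a receptor of platelets, fell by 4.68, Clec5a by 1.23 and Clec4b1 by 0.96, although another probe of Clec4b1 was called the other way. Among 12 Fc receptor genes, 5 rose and 2 fell (median 0.37, and 3 rose and 0 fell within the arrays of high background), with the inhibitory receptor Fcgr2b at 1.22 and the high-affinity IgG receptor Fcgr1 at 1.09 (adjusted p = 0.0845 within the arrays of high background).

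Receptors for chemoattractants changed in both directions. Of 23 genes 11 rose and 4 fell (median 0.71, and 7 rose and 2 fell within the arrays of high background). Ccrl2, an atypical receptor that presents chemerin, had 14.64, 13.48, 14.18 and 13.86 in G-MDSC 1 to 4, against 7.84 to 9.20 (median 8.61) in NN, and its difference was 5.45 (standard error 0.26, adjusted p = 2.1e-09). Hcar2, a receptor for nicotinic acid and butyrate, rose by 4.06, and the chemokine receptor gene Cxcr1 by 2.89. Cxcr2 and Cxcr4 oppose each other in the release and retention of neutrophils in marrow. Cxcr2 rose by 0.79 (adjusted p = 0.0913 within the arrays of high background), and Cxcr4 had a difference of -0.43, with overlap. The call of Cxcr4 was narrow (adjusted p = 0.04996) and ended when any array other than G-MDSC 1 or NN 6 was left out. Ackr1, the chemokine scavenger of red blood cells, fell by 3.07, and Ltb4r1, the leukotriene B4 receptor gene, by 1.42.

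Cytokine receptors mostly rose where they changed, 11 of 28 against 2 that fell (median 0.14, and 10 rose and 1 fell within the arrays of high background). Il13ra1, a chain of the IL-4 and IL-13 receptor, had 12.19, 13.25, 13.36 and 13.15 in G-MDSC 1 to 4, against 9.35 to 10.001 (median 9.65) in NN and rose by 3.31 (standard error 0.20, adjusted p = 1.2e-08). Il10ra rose by 2.34 and Ifngr1 by 1.76, and Epor, the erythropoietin receptor gene, fell by 1.68. Il6ra had 8.64, 10.54, 10.94 and 10.83 in G-MDSC 1 to 4, against 9.90 to 10.48 (median 9.99) in NN, with G-MDSC 1 below all other arrays. Its difference was 0.19 (adjusted p = 0.675) and 0.72 without that array (adjusted p = 2.5e-04).

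Signalling genes below these receptors held both rises and falls. Of 31 Src-family kinases, Syk and inhibitory receptors 16 rose and 5 fell (median 0.57, and 11 rose and 4 fell within the arrays of high background), led by the inhibitory receptor Pilra (1.97), the adaptor Pag1 (1.94) and Cd300lf (1.58), while Dok2 (-2.18) and Src (-1.74) fell. Of 32 G proteins and their regulators 14 fell and 7 rose (median -0.26, and 4 rose and 7 fell within the arrays of high background). This lean depended on the processing, since 8 fell and 7 rose with each array scaled to its median. With the background level as a block, 5 fell and 6 rose. Rgs1, which shortens chemokine receptor signals, had 12.35, 9.76, 10.03 and 10.86 in G-MDSC 1 to 4, against 6.36 to 7.94 (median 6.95) in NN and rose by 3.74 (standard error 0.43, adjusted p = 7.7e-06). Gngt2 rose by 2.45, and Gna15, a G protein α chain of blood cells, fell by 1.40.

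Interferon-stimulated genes rose as a group, 37 of 50 against 2 that fell (median 0.74), and 26 rose and 1 fell within the arrays of high background. Their median was smaller than that of the early genes. Gbp3, a guanylate-binding protein active against intracellular pathogens, had 10.57, 10.39, 10.30 and 10.89 in G-MDSC 1 to 4, against 7.05 to 7.85 (median 7.37) in NN. Its difference was 3.10 (standard error 0.15, adjusted p = 2.6e-09). Oasl2 rose by 2.95, Gbp2 by 2.63 and Ifit3 by 2.16. Gbp and Oas genes are families of near copies, and single members are uncertain. Ifitm6, a member expressed in myeloid cells, fell by 1.05. Isg20 and Ifi204 were among those that did not pass, with differences of 0.24 and 0.03.

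Genes of MHC class II presentation, a function of professional antigen-presenting cells, rose in 15 of 16 cases and fell in 0 (median 2.07), with 13 within the arrays of high background and 14 without G-MDSC 1. The list mean was 10.59 to 10.998 in G-MDSC, against 8.64 to 9.04 in NN. H2-Eb1 had 13.63, 13.25, 13.11 and 13.66 in G-MDSC 1 to 4, against 9.59 to 10.70 (median 10.04) in NN. Its difference was 3.25 (standard error 0.19, adjusted p = 1.1e-08). Ciita, the master regulator of these genes, had 8.95, 9.55, 9.19 and 9.88 in G-MDSC 1 to 4, against 6.62 to 6.84 (median 6.73) in NN and rose by 2.64. Cd74, the invariant chain, had 15.14, 14.57, 14.51 and 15.04 in G-MDSC 1 to 4, against 11.59 to 12.67 (median 12.30) in NN and rose by 2.64. The B cell list mean was 10.15 in G-MDSC 1 and 7.52 to 7.71 in G-MDSC 2 to 4, against 8.22 to 8.85 in NN. Dendritic cell markers were higher in every G-MDSC than in any NN (7.47 to 8.28 in G-MDSC, against 6.97 to 7.11 in NN), though Clec9a and Flt3 had differences of 0.10 and -0.12 and did not pass. The part of such cells in the class II values was not tested.

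Of 22 genes of MHC class I loading and the immunoproteasome, 16 rose and 1 fell (median 0.79, and 14 rose and 0 fell within the arrays of high background). H2-M2, below background in all NN, was at least 6.08-fold higher. Nlrc5, which induces class I genes, rose by 2.07 and H2-M3 by 1.33. Psme2 had a difference of -0.69, which did not pass in the arrays of high background alone (adjusted p = 0.270), and B2m, the shared light chain, did not pass (0.06). The signals of B2m lay near the top of the range, at 15.06 to 15.19 in G-MDSC, against 15.02 to 15.14 in NN. H2 genes are near copies of each other, so that their probes may share signal.

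Ligands that stimulate or restrain T cells were mixed, with 9 of 20 rising and 3 falling (median 0.27, and 6 rose and 4 fell within the arrays of high background). Cd274, the checkpoint ligand PD-L1, had 11.93, 10.86, 10.95 and 11.30 in G-MDSC 1 to 4, against 7.95 to 8.28 (median 8.08) in NN. No G-MDSC overlapped NN and the difference was 3.15 (standard error 0.17, adjusted p = 4.8e-09). Havcr2, the checkpoint receptor TIM-3, rose by 2.30, Cd244a by 1.79 and the costimulatory ligand Cd86 by 1.61. Slamf1 fell by 1.86, the galectin gene Lgals3 by 0.79 and Tnfrsf14 by 0.67.

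Genes by which MDSC are described to suppress T cells did not share a direction: of 23, 10 rose, 7 fell and 6 did not pass (median 0.11, and 5 rose and 5 fell within the arrays of high background). Arg1 had 6.11, 5.92, 6.18 and 6.56 in G-MDSC 1 to 4, against 5.88 to 6.19 (median 6.09) in NN. Nos2, the inducible nitric oxide synthase, had 6.59, 6.57, 6.53 and 6.67 in G-MDSC 1 to 4, against 6.25 to 6.71 (median 6.50) in NN. Neither passed, with differences of 0.12 (adjusted p = 0.385) and 0.11 (adjusted p = 0.388), and both overlapped between the groups. Only G-MDSC 4 held an Arg1 signal that cleared background, and Nos2 stayed close to background in both groups. Signals this low can hardly show whether either gene differed. Arg2, the mitochondrial arginase, had 12.41, 12.54, 12.30 and 12.31 in G-MDSC 1 to 4, against 11.17 to 11.73 (median 11.23) in NN and rose by 1.05 (standard error 0.11, adjusted p = 3.8e-06). Ptgs2, the inducible cyclooxygenase, was below background in all NN and was at least 4.43-fold higher in G-MDSC. Cebpb, a factor of emergency granulopoiesis, rose by 1.46.

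The falls in this list were of different kinds. Nt5e, the ectoenzyme CD73 that makes adenosine, had 8.10, 7.38, 7.37 and 7.99 in G-MDSC 1 to 4, against 10.80 to 11.57 (median 10.91) in NN and fell by 3.34 (standard error 0.18, adjusted p = 6.7e-09). Odc1, of polyamine synthesis, fell by 1.79 with overlap, since G-MDSC 1 had 11.80 and the others 9.61 to 9.82, against 11.75 to 12.50 in NN. S100a8 and S100a9, whose proteins form calprotectin, were among the brightest genes of both groups and had differences of -0.25 and -0.45. Both were called over all arrays but not within those of high background (adjusted p = 0.289 and 0.0867), S100a8 also not without G-MDSC 2 or NN 5, and signals near the top of the range are compressed. Cybb, the catalytic chain of the NADPH oxidase, fell by 0.77.

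The lists of granule genes differed in their medians. Azurophil granule proteins come first, in promyelocytes, and 9 of 16 fell while 3 rose (median -1.06, and 2 rose and 8 fell within the arrays of high background). Mpo, myeloperoxidase, had 8.89, 7.36, 7.73 and 7.76 in G-MDSC 1 to 4, against 12.10 to 13.27 (median 12.58) in NN. All G-MDSC lay far below all NN, with a difference of -4.64 (standard error 0.29, adjusted p = 1.7e-08). Elane, neutrophil elastase, had 7.98, 6.89, 7.28 and 7.43 in G-MDSC 1 to 4, against 10.98 to 12.52 (median 11.57) in NN and fell by 4.20, Ctsg, cathepsin G, by 3.83 and Prtn3, proteinase 3, by 2.95. Against these, Srgn, the proteoglycan that packs granule proteins, rose by 2.05 and Ctsc, which activates the granule proteases, by 0.71.

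In the list of specific granule proteins, made in myelocytes, 15 of 23 genes fell and 3 rose (median -0.63, and 1 rose and 15 fell within the arrays of high background). Chil3, a chitinase-like protein, had 13.72, 12.50, 12.23 and 12.38 in G-MDSC 1 to 4, against 14.94 to 15.33 (median 15.08) in NN and fell by 2.40 (standard error 0.22, adjusted p = 8.7e-07). Mmp8, neutrophil collagenase, fell by 2.28, Cd177 fell by 1.92 and Olfm4 by 1.62. Lcn2, lipocalin 2, had 15.94, 15.97, 15.95 and 15.93 in G-MDSC 1 to 4, against 15.95 to 16.01 (median 15.98) in NN, with overlap and a difference of -0.03 (adjusted p = 0.716). All these values lie at the top of the signal range, where a difference could hardly show. The only rises in this list were of Stfa2 (1.82), Stfa1 (0.46) and Stfa3 (0.32), stefins that are near copies of each other. Whether stefins are stored in these granules is not shown by these data. Stfa1 and Stfa3 did not pass in the arrays of high background alone (adjusted p = 0.0841 and 0.134).

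Genes of gelatinase granules and secretory vesicles, the latest to form, leaned the other way: 9 of 21 rose and 5 fell (median 0.26, and 10 rose and 4 fell within the arrays of high background). Cd14 rose as given above, the aminopeptidase gene Anpep, below background in all NN, was at least 2.79-fold higher, and Slc11a1, a metal transporter of these granules, rose by 1.32. Mmp9, gelatinase B, fell by 1.01 and Cd55, a membrane inhibitor of complement, fell by 2.20. The list medians thus ran -1.06 for azurophil, -0.63 for specific and 0.26 for gelatinase and secretory genes, a description over lists that share some members. The last list joins granule and vesicle genes, and its share that fell, 23.8%, was near that over all genes (23.7%). The stage of the cells was not measured.

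**Figure D3:**
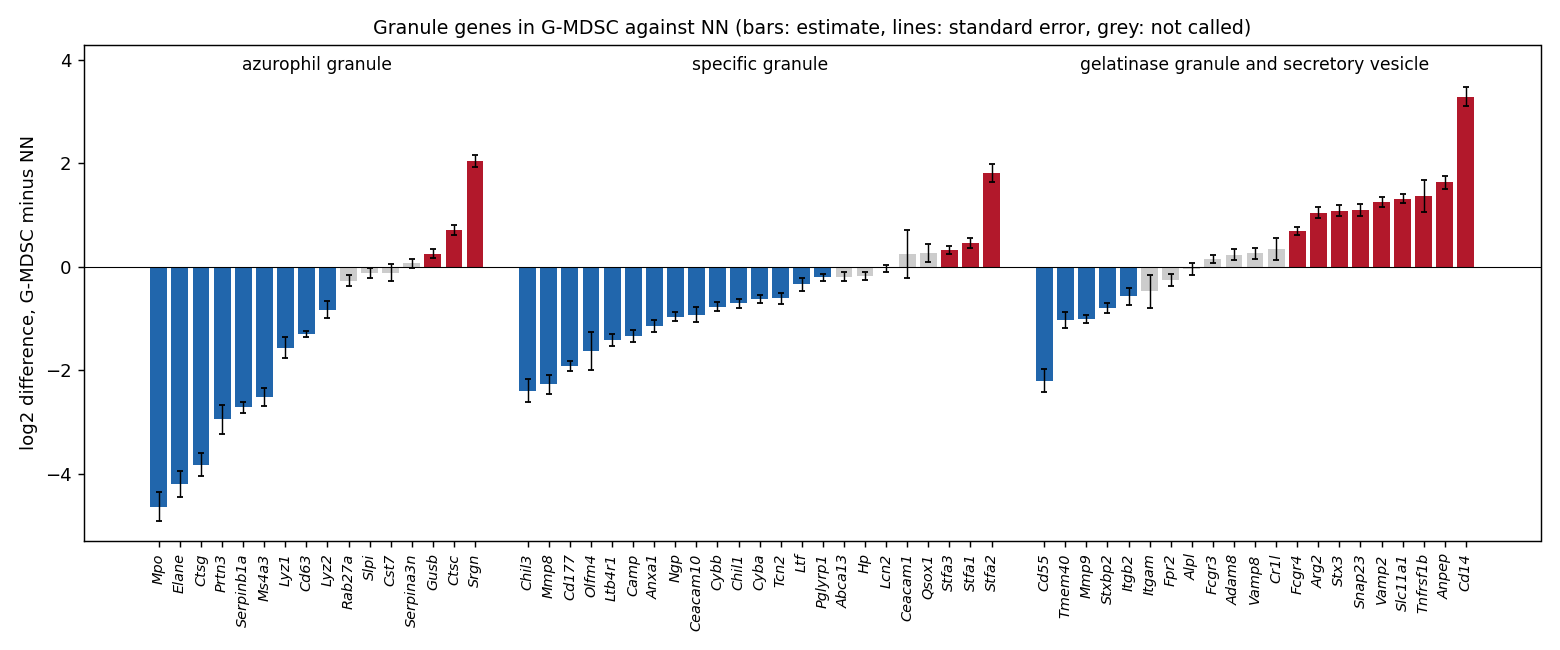
Log2 difference (G-MDSC minus NN) of each measured granule gene, in 3 blocks for azurophil, specific and gelatinase or secretory genes, with error bars of ± 1 standard error of the limma estimate over 11 arrays and genes that did not pass in grey. The largest fall is Mpo (-4.64) among azurophil genes, and the gelatinase and secretory block holds 9 rises and 5 falls.

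Transcription factors of granulocyte development changed in both directions. Of 50, 16 rose and 21 fell (17 and 16 with each array scaled to its median, median difference -0.10, and 13 rose and 18 fell within the arrays of high background). Cebpe, required for specific granules, had 11.15, 10.35, 10.28 and 10.62 in G-MDSC 1 to 4, against 13.47 to 13.65 (median 13.59) in NN and fell by 2.99 (standard error 0.14, adjusted p = 1.1e-09). Gfi1, a transcriptional repressor required for neutrophil differentiation, fell by 1.74. The largest falls, of Zfpm1 (-4.23) and Klf1 (-4.12), were of factors of red blood cells and platelets. The rises were led by Klf4 (2.82), Klf2 (2.004) and Ets2 (1.93), and Mxd1, an antagonist of Myc in mature neutrophils, rose by 1.42. Of 17 progenitor genes 8 fell and 2 rose (1 rose and 4 fell within the arrays of high background), with Ms4a3, a gene of granulocyte precursors, at -2.52.

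The phagocyte NADPH oxidase, which makes superoxide, fell in 9 of 12 genes and rose in 2 (median -0.63), with 0 rose and 6 fell within the arrays of high background, and 5 fell and 2 rose with each array scaled to its median. Ncf1, the p47phox subunit, had 10.27, 10.45, 10.57 and 10.36 in G-MDSC 1 to 4, against 12.07 to 12.48 (median 12.25) in NN and fell by 1.84 (standard error 0.09, adjusted p = 3.2e-09). Cyba, the p22phox subunit, had a difference of -0.63, which did not pass with that scaling. Hvcn1, the proton channel that sustains the oxidase, had 11.85, 9.15, 9.10 and 9.46 in G-MDSC 1 to 4, against 11.88 to 12.25 (median 12.13) in NN. It fell by 2.22, with G-MDSC 1 near the NN, and the adjusted p within the arrays of high background was 0.0695. P4hb and Cybc1 had differences of 0.70 and 0.43, and neither call held in the arrays of high background alone (adjusted p = 0.156 and 0.211).

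Antioxidant genes fell in 14 and rose in 5 of 38 cases (median -0.23, and 3 rose and 13 fell within the arrays of high background). The largest falls were of Prdx2 (-3.69), a peroxiredoxin abundant in red blood cells, Mgst3 (-3.32) and Mgst2 (-2.55), glutathione transferases of membranes, and Gstm5 (-1.61). Iron and heme genes were similar, with 12 of 33 falling and 9 rising (6 rose and 8 fell within the arrays of high background). Alad, an enzyme of heme synthesis, fell by 4.03, the transferrin receptor Tfrc by 2.80 and Glrx5 by 2.48, while the ferrireductase gene Steap4 rose by 1.69. Prdx2, Alad and Tfrc moved with the red blood cell markers, and the part of such cells was not tested.

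Adhesion receptors divided. Of 34 integrins, selectins and other adhesion genes 11 rose and 13 fell (13 and 11 with each array scaled to its median, median difference -0.06, and 12 rose and 9 fell within the arrays of high background). Itgb7 rose by 2.46 and its partner Itgae by 2.45, and Icam1, the ligand of β2 integrins, had 10.80, 10.51, 10.82 and 10.68 in G-MDSC 1 to 4, against 8.06 to 8.54 (median 8.31) in NN and rose by 2.38. Selp, P-selectin, rose by 2.03 although 12 of the other platelet markers fell. Itgb2l, a β2-like integrin chain of neutrophils, had 9.25, 9.32, 8.81 and 9.46 in G-MDSC 1 to 4, against 12.18 to 12.51 (median 12.24) in NN and fell by 3.09. Itga2b, the platelet integrin, fell by 3.43, Icam4, of red blood cells, by 2.49 and Esam by 1.96. Itgam, the CD11b chain, had a difference of -0.47 (adjusted p = 0.253).

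The actin cytoskeleton, which drives migration, fell in 23 of 55 genes and rose in 11 (median -0.26, and 7 rose and 16 fell within the arrays of high background), though with each array scaled to its median 11 fell and 13 rose. Capg, an actin capping protein of phagocytes, had 11.36, 10.60, 10.40 and 11.001 in G-MDSC 1 to 4, against 12.86 to 13.11 (median 13.01) in NN and fell by 2.17. Tpm1 fell by 1.79 and Vcl by 1.67, while Evl (1.85), Ssh2 (1.59) and Tmsb10 (0.98) rose. Tetraspanins, organisers of membrane proteins, fell in 11 and rose in 6 of 21 cases (4 rose and 7 fell within the arrays of high background), with Tspan33 at -3.34 and Tspan2 at 1.697. With each array scaled to its median, 8 tetraspanins fell and 7 rose.

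Secreted proteases and lipid mediators were also called in both directions. Of 26 metalloproteinases, TIMPs and ADAMs 7 rose and 7 fell (median -0.06, and 6 rose and 5 fell within the arrays of high background). Each share was 26.9%, close to those over all genes (23.0% higher and 23.7% lower). Adam23 and Mmp12, macrophage elastase, were below background in all NN and at least 5.60-fold and 3.03-fold higher, and Timp3 lay under background in every G-MDSC and was at least 5.75-fold lower. Of 29 genes of prostaglandins and leukotrienes 11 rose and 9 fell (8 rose and 6 fell within the arrays of high background), with Dpep2 at 1.77, the platelet lipoxygenase Alox12 at -4.80 and Lta4h, which makes leukotriene B4, at -1.12. Of 24 complement genes 4 rose and 6 fell, against 4 rose and 5 fell within the arrays of high background. Fcnb, a ficolin of neutrophil precursors, had 9.91, 8.60, 8.17 and 9.04 in G-MDSC 1 to 4, against 11.79 to 12.44 (median 12.22) in NN and fell by 3.24 (standard error 0.25, adjusted p = 1.7e-07). C6, below background in all NN, was at least 4.37-fold higher. Of 31 coagulation and plasminogen genes 6 rose and 8 fell (3 rose and 6 fell within the arrays of high background), with Fgl2 at 2.26 and Plau, urokinase, at -2.51. Of 13 S100 genes 3 rose and 4 fell (2 rose and 2 fell within the arrays of high background, but 4 rose and 2 fell with each array scaled to its median), with S100a4 at 2.22.

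Most genes of cell division fell. Of 42 DNA replication genes 33 fell and 0 rose (median -1.20), and 0 rose and 30 fell within the arrays of high background. Of 67 genes of mitosis and cell cycle control 54 fell and 6 rose (median -1.35, and 4 rose and 53 fell within the arrays of high background). Top2a, which untangles DNA, had 7.61, 7.28, 7.39 and 7.78 in G-MDSC 1 to 4, against 10.64 to 11.22 (median 10.88) in NN and fell by 3.39 (standard error 0.12, adjusted p = 1.2e-10). Nusap1, a spindle protein, had 8.64, 8.04, 7.95 and 8.45 in G-MDSC 1 to 4, against 11.41 to 12.10 (median 11.72) in NN and fell by 3.47 (standard error 0.15, adjusted p = 6.8e-10). No array of either gene overlapped between the groups. Uhrf1 fell by 3.11, Tk1 by 2.96, Prc1 by 3.37 and Birc5 by 2.86.

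Among the members that rose were inhibitors of the cell cycle and D-type cyclins. Cdkn1a, the inhibitor p21, had 11.55, 9.17, 9.59 and 9.64 in G-MDSC 1 to 4, against 6.74 to 7.57 (median 7.13) in NN and rose by 2.78, Cdkn1b by 1.48 (adjusted p = 0.0568 within the arrays of high background) and Ccnd1 by 1.38. Pcna, a clamp of replication, did not pass, at 0.09. In the DNA replication list G-MDSC 1 had the highest list mean of the G-MDSC, 8.38 against 7.68 to 7.91 in the others, with 9.18 to 9.49 in NN, and without it 37 genes fell.

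Of 56 histone genes, 18 rose and 19 fell (15 rose and 13 fell within the arrays of high background, 19 rose and 17 fell with each array scaled to its median, median difference -0.05). The largest falls were all of H2A genes, with H2ac18 at -2.97, H2ac7 at -2.66 and H2ac11 at -2.54, and the largest rises all of H2B genes, H2bc6 at 1.496 and H2bc11 and H2bc4 at 1.27 each. Histone genes are near copies, so that single members are uncertain. Of 35 p53 targets and DNA damage genes 16 rose and 10 fell (12 rose and 8 fell within the arrays of high background), led by Plk3, Gadd45b (2.86) and Cdkn1a, members that the early response list and the cell cycle list also hold, and with Gtse1 (-2.10) and H2ax (-2.08) among the falls.

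Machinery of protein and energy supply shifted modestly. Of 51 nucleolar genes 15 rose and 2 fell (median 0.22), with 5 rose and 2 fell within the arrays of high background. Of 59 cytosolic ribosomal proteins 10 rose, 2 fell and 47 did not pass, a called share of 20.3%, against 46.7% of all genes. Their direction turned on the processing, since 6 rose and 8 fell without G-MDSC 1, 3 rose and 0 fell within the arrays of high background, and 25 rose and 0 fell with each array scaled to its median. Splicing factors held 12 rises and 19 falls of 80 (3 rose and 13 fell within the arrays of high background), and 16 and 4 with each array scaled to its median. Constitutive proteasome subunits fell in 15 of 34 cases and rose in 2 (1 rose and 10 fell within the arrays of high background, and 7 fell and 4 rose with each array scaled to its median), Psmd1 at -1.07, Psmd14 at -1.002 and Psmc3 at -0.82, with Psmb1 the exception at 2.43. The mitochondrial respiratory chain fell in 38 of 75 genes and rose in 5 (median -0.32, and 0 rose and 29 fell within the arrays of high background, but 16 fell and 9 rose with each array scaled to its median), in small steps such as those of Ndufv3 (-1.10) and Uqcrb (-1.08).

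Glycolysis and the pentose phosphate pathway, the main energy source of neutrophils, fell in 19 of 33 genes and rose in 7 (median -0.52, and 4 rose and 18 fell within the arrays of high background). With each array scaled to its median, 14 fell and 7 rose. Hk2 and Hk3, hexokinases, had differences of -1.38 and -1.37, and Pfkm, a phosphofructokinase, -1.42. Hk3 had 13.001, 12.94, 12.70 and 13.09 in G-MDSC 1 to 4, against 14.11 to 14.54 (median 14.31) in NN, with no overlap. Slc2a1, the glucose transporter GLUT1, moved the other way, with 13.41, 12.95, 12.57 and 12.81 in G-MDSC 1 to 4, against 10.58 to 10.91 (median 10.76) in NN and a rise of 2.17 (standard error 0.13, adjusted p = 1.4e-08), as did Eno3 (1.89). Of 33 hypoxia-induced and angiogenic genes 9 rose and 7 fell (median 0.02, and 8 rose and 6 fell within the arrays of high background). Those shares, 27.3% and 21.2%, lay near the 23.0% and 23.7% over all genes. Hilpda, of lipid droplets, had 11.32, 8.32, 8.61 and 8.59 in G-MDSC 1 to 4, against 6.92 to 7.62 (median 7.08) in NN, and its difference of 2.03 was 1.32 without G-MDSC 1, with an adjusted p of 0.110 within the arrays of high background.

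In lipid metabolism, cholesterol synthesis and uptake fell in 9 of 22 genes and rose in 3 (median -0.25, and 1 rose and 10 fell within the arrays of high background). Hsd17b7, an enzyme of this synthesis, fell by 2.71, Stard4 by 1.66, Msmo1 by 1.34 and the master regulator Srebf2 by 1.33. Among 32 genes of lipid uptake and storage 11 rose and 9 fell (10 rose and 6 fell within the arrays of high background). Cyp27a1, which makes an oxysterol, rose by 2.64, the cholesterol exporter Abcg1 by 1.72 and the lipase gene Pnpla2 by 1.60, and Lpl fell by 1.41.

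Lysosomal genes rose in 20 and fell in 16 of 60 cases (median 0.12, 17 rose and 8 fell within the arrays of high background, and 28 rose and 6 fell with each array scaled to its median), led by Gm2a (2.15), Ctss (1.80) and Ppt1 (1.60), with Cd63 (-1.30) and Ctse (-1.09) lower. Autophagy genes changed mostly upward, 15 of 32 against 1 that fell (median 0.27, and 13 rose and 1 fell within the arrays of high background). Atg13, which starts autophagosome formation, rose by 1.15, the cargo receptor gene Sqstm1 by 1.04 and Uvrag by 1.01, and Wipi1 fell by 1.84. Rab GTPases fell in 11 and rose in 7 of 51 cases (11 fell and 13 rose without G-MDSC 1, 3 rose and 7 fell within the arrays of high background, but 7 fell and 14 rose with each array scaled to its median), with Rab3d, of secretory granules, at -1.99. The share of Rab genes that fell, 21.6%, was near that over all genes, and 13.7% rose. Of 223 solute carriers 58 rose and 60 fell (37 rose and 32 fell within the arrays of high background, but 64 rose and 40 fell with that scaling). Those shares, 26.0% and 26.9%, lay near the 23.0% and 23.7% over all genes.

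Genes of survival and death were called on both sides. In the BCL2 family 9 of 19 rose and 4 fell (median 0.10, and 7 rose and 2 fell within the arrays of high background). The antiapoptotic Bcl2a1c (2.50) and Bcl2a1d (2.09), near copies of each other, rose, and so did the proapoptotic Pmaip1 (2.26) and Bid (1.05). Mcl1, on which neutrophil survival depends, had 14.52, 14.50, 14.40 and 14.42 in G-MDSC 1 to 4, against 13.43 to 13.79 (median 13.60) in NN and rose by 0.83. Bcl2l2 fell by 0.50. Bcl2l1 had a difference of -0.79 with overlap and did not pass in the arrays of high background alone (-0.20, adjusted p = 0.569). Of 26 caspases and death execution genes 6 rose and 7 fell (4 rose and 4 fell within the arrays of high background, but 9 rose and 2 fell with each array scaled to its median), with Casp4, the sensor of intracellular lipopolysaccharide, at 1.84. The shares of this list, 23.1% and 26.9%, lay close to those over all genes (23.0% and 23.7%).

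Stress programs were uneven. Of 21 heat shock genes 5 rose, 1 fell and 15 did not pass, and 2 rose and 0 fell within the arrays of high background. The share of heat shock genes that rose, 23.8%, was near that over all genes (23.0%). Hspa1a, the inducible HSP70, had 10.74, 8.73, 8.83 and 9.30 in G-MDSC 1 to 4, against 6.05 to 6.47 (median 6.17) in NN. It was below background in all NN and at least 7.62-fold higher in G-MDSC, whereas Dnajb1 and Hspb1 did not pass (0.01 and 0.20). Of 21 genes of endoplasmic reticulum stress 11 rose and 2 fell (median 0.41, and 7 rose and 1 fell within the arrays of high background), led by Dnajb9 (1.95), Ddit3 (1.60) and Hspa5 (1.49). Of 20 genes of amino acid starvation 8 rose and 6 fell (5 rose and 4 fell within the arrays of high background), with Nupr1 at 2.70 and Asns, asparagine synthetase, at -1.12.

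Of 15 glucocorticoid-induced genes 7 rose and 1 fell (7 rose and 1 fell within the arrays of high background), with Il1r2 at 2.35, Pik3ip1 at 1.85 and Anxa1, annexin A1, at -1.15. Tsc22d3 did not pass (0.53). Circadian clock genes rose in 9 of 12 cases, but 3 did so within the arrays of high background. Ciart rose by 2.06 (adjusted p = 0.0933 there) and Arntl, the core activator, had a difference of -0.30 (adjusted p = 0.164). The hour of harvest is not given in the sources used here.

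Genes that no list held also stood among the largest rises. Igfbp6, which binds insulin-like growth factor II, had 10.90, 11.10, 11.37 and 11.02 in G-MDSC 1 to 4, against 6.62 to 6.79 (median 6.71) in NN and rose by 4.39 (standard error 0.09, adjusted p = 2.3e-12). Ambp, the precursor of α1-microglobulin and bikunin, had 10.84, 10.99, 10.89 and 10.81 in G-MDSC 1 to 4, against 6.45 to 6.96 (median 6.65) in NN and rose by 4.22. Both were separate from all NN in each G-MDSC, G-MDSC 1 included. Wfdc17 rose by 3.99, Ms4a6d by 3.79 and Syt11 by 3.60.

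The steepest falls on the arrays were among red blood cell, platelet and eosinophil genes. Hba-a1, a globin chain, had 11.09, 12.42, 13.04 and 13.83 in G-MDSC 1 to 4, against 15.98 to 16.01 (median 16.01) in NN. Its NN values lie at the top of the signal range, where differences are compressed. Gp5, of the platelet receptor for von Willebrand factor, had 6.70, 6.40, 6.40 and 6.36 in G-MDSC 1 to 4, against 10.85 to 11.81 (median 10.95) in NN. Ear6, an eosinophil-associated ribonuclease, had 8.99, 6.93, 6.67 and 7.25 in G-MDSC 1 to 4, against 11.30 to 12.18 (median 11.95) in NN. For each gene all G-MDSC lay below all NN, and the differences were -3.41 (standard error 0.35, adjusted p = 2.6e-06) for Hba-a1, -4.66 (standard error 0.17, adjusted p = 1.8e-10) for Gp5 and -4.37 (standard error 0.34, adjusted p = 1.8e-07) for Ear6. Among stromal genes, Sparc and Dcn were below background in all G-MDSC, at least 3.20-fold and 1.79-fold lower.

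**Figure D4:**
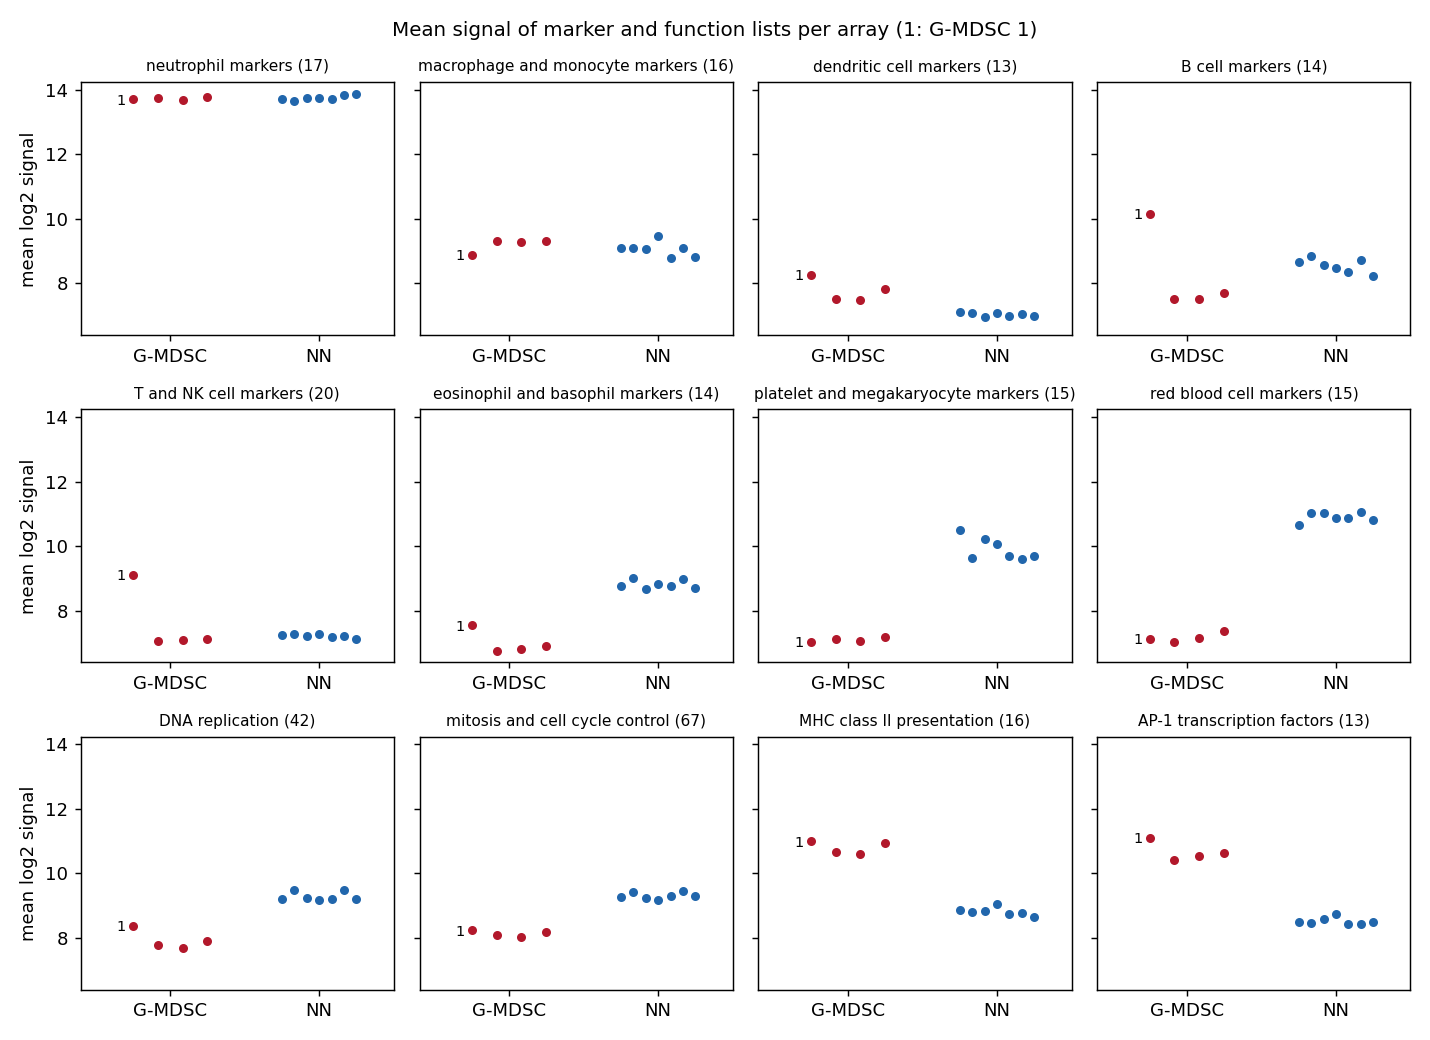
Mean log2 signal of 12 gene lists in each array, with G-MDSC in red (G-MDSC 1 marked) and NN in blue. The red blood cell list separates the groups most (7.02 to 7.37 in G-MDSC, against 10.64 to 11.04 in NN), and B cell and T and NK cell lists set G-MDSC 1 (10.15 and 9.11) apart from every other array.

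Across the 62 lists of functions, 12 had most of their measured members called higher in G-MDSC and 8 had most called lower. The 12 held, beside the early response, NF-κB, SOCS and STAT lists, those of IL-1, Toll-like receptors, inhibitory receptors, interferon-stimulated genes, both classes of MHC, endoplasmic reticulum stress and the circadian clock. The 8 were azurophil and specific granules, the NADPH oxidase, DNA replication, mitosis, the respiratory chain, glycolysis and tetraspanins. Within the arrays of high background 7 lists had most members higher and 4 had most lower. With each array scaled to its median, 18 lists had most members higher and 4 had most lower. Those 4 were azurophil and specific granules, DNA replication and mitosis.

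**Figure D5:**
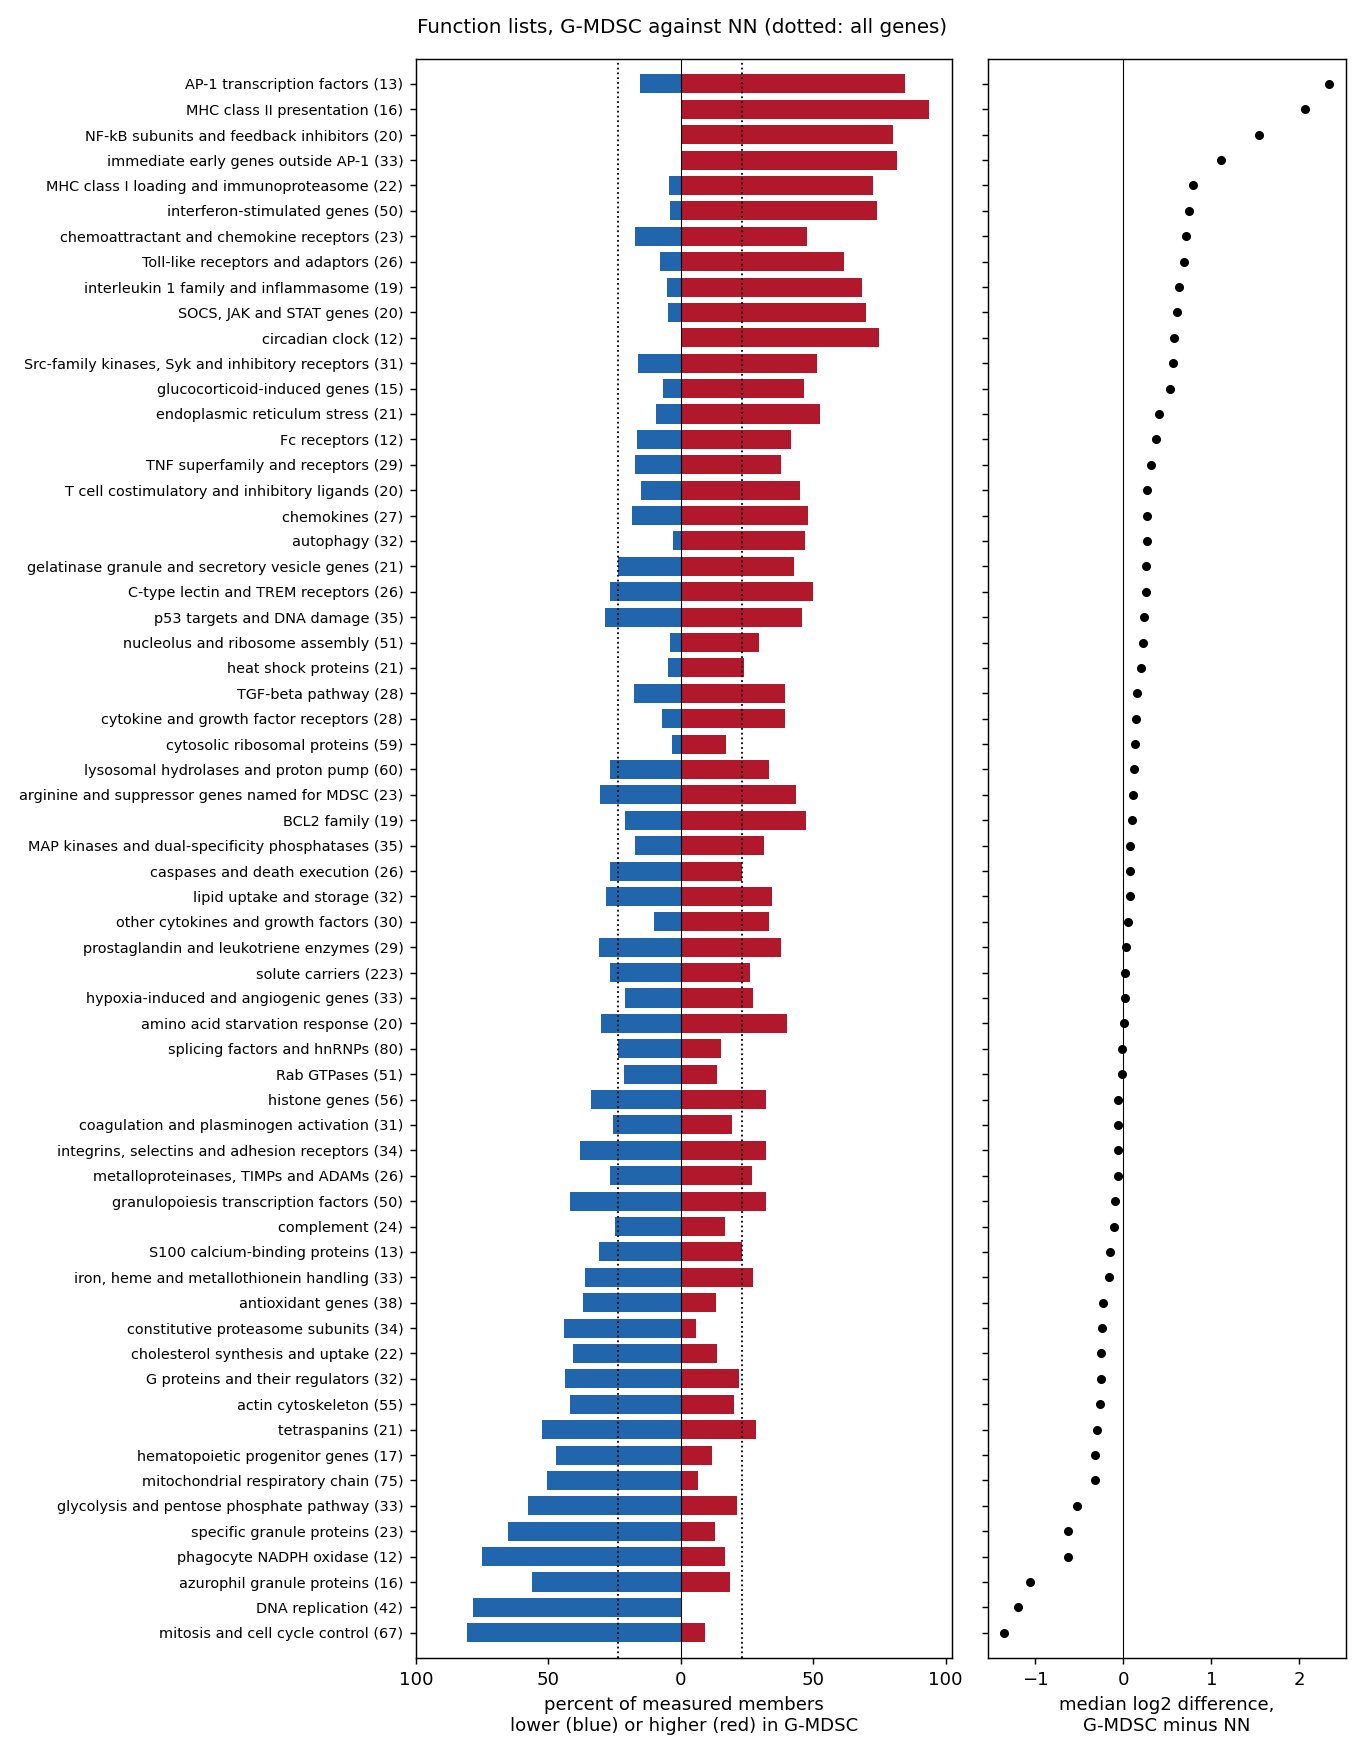
Share of measured members called higher (red) or lower (blue) in G-MDSC for 62 lists of functions, beside each list's median log2 difference, with dotted lines at the shares over all genes (23.0% higher and 23.7% lower). Mitosis (80.6% lower) and MHC class II presentation (93.8% higher) stand at the far ends.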

How the data were processed

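The deposited per-array files hold the intensity of each of 25697 bead probes as summarized by Bead Studio 3.0 from Illumina Mouse Ref-8 v2 arrays, per the labels and methods, neither background subtracted nor normalized. The deposited table of the authors' values holds quantile normalized intensity on a linear scale and was used as an alternative. The authors left 9375 probes out of it, and 16316 of the other 16322, with at least 1.2-fold between some pair of arrays, were kept here. Background was corrected with limma 3.58.1 (R 4.3.3) by normexp with offset 50, and log2 values of the 15 arrays were brought to shared quantiles. lmFit and eBayes compared 4 G-MDSC with 7 NN (two-sided, Benjamini-Hochberg over all kept probes, adjusted p under 0.05). The number of arrays limits the precision. The spread came from the 2 groups compared, and the methods' one-way analysis of variance over 3 populations was an alternative.

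Probes were named through GEO's platform annotation (15321 with 1 symbol, 995 with none), and each of 11075 genes takes its brightest probe (highest mean of both groups). A gene counted as above background where it exceeded the 95th percentile of the 9375 left-out probes. Where no array of a group did, the fold is given as a bound, with the lowest signal above background in place of that group. The files used here hold no detection p-value. The fit was tested on simulated data.

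The groups and the 62 function and 10 marker lists were chosen with earlier results of these data known. Lists were described by counts and medians, with no test. Named were the 20 largest rises and falls that held within the arrays of high background and without G-MDSC 1, the 4 called members of each list with the largest differences, up to 3 against its majority, any member of lists of up to 12, and members that did not pass. Arg2, Batf, Ccl5, Ccl9, Cd300lf, Cd74, Cd79a, Cd86, Ciita, Cxcl1, Cxcl14, Cxcr2, Cxcr4, Dcn, Egr2, Esam, Fos, Gfi1, Hba-a1, Hk3, Jun, Lta4h, Mcl1, Olfm4, S100a8, S100a9, Syk, Scd1, Thy1, Eef2 and C5ar1 were named beyond this rule, after their values were seen. The replicate numbers of the titles do not pair the arrays. Alternatives changed the background correction, scaling, filter, arrays, variance model, weights, blocks and probe choice. Promoter windows came from RefSeq.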

Additional observations from a re-analysis of the deposited data

Results flagged for a closer look

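Within a group, an array was marked where its gap to the nearest other array exceeded Dixon's critical value at 95% for that number of arrays. Of 600 sets of values examined, 1 for each group of each gene or list mean given, 45 held such an array. Chance gives about 1 in 20 for genes chosen without regard to their values. Some genes here were named after their values were seen, Scd1, Thy1, Eef2 and Cd79a among them, so the counts are no test against chance. G-MDSC 1 was that array in 25 of them and an NN array in 10.

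The values of G-MDSC 1 were as follows, on the log2 scale. An array stood above the rest of its group for Birc2 (11.84 in G-MDSC 1, others 10.92 to 11.08), Ccl4 (14.75 in G-MDSC 1, others 12.24 to 12.58) and Cd79a (12.57 in G-MDSC 1, others 7.66 to 8.35). The same held, above the rest, for Csrnp1 (13.14 in G-MDSC 1, others 11.57 to 11.65), Cxcl2 (14.70 in G-MDSC 1, others 13.36 to 13.55) and Ets2 (14.97 in G-MDSC 1, others 13.12 to 13.37). Also above the others were the values of Gp5 (6.70 in G-MDSC 1, others 6.36 to 6.40), H2ac7 (11.63 in G-MDSC 1, others 11.29 to 11.34) and Hilpda (11.32 in G-MDSC 1, others 8.32 to 8.61). An array stood above the rest of its group for Hvcn1 (11.85 in G-MDSC 1, others 9.10 to 9.46), Il1r2 (14.20 in G-MDSC 1, others 12.88 to 13.06) and Ms4a3 (8.03 in G-MDSC 1, others 7.21 to 7.32). The same held, above the rest, for Ndufv3 (11.24 in G-MDSC 1, others 10.88 to 10.89), Odc1 (11.80 in G-MDSC 1, others 9.61 to 9.82) and P4hb (12.58 in G-MDSC 1, others 11.41 to 11.54). Also above the others were the values of Plk3 (12.90 in G-MDSC 1, others 11.45 to 11.58), Scd1 (12.13 in G-MDSC 1, others 7.32 to 7.49) and Thy1 (11.04 in G-MDSC 1, others 6.07 to 6.87). An array stood above the rest of its group for Zfpm1 (9.31 in G-MDSC 1, others 7.36 to 7.49), the list mean of B cell markers (10.15 in G-MDSC 1, others 7.52 to 7.71) and the list mean of T and NK cell markers (9.11 in G-MDSC 1, others 7.06 to 7.11). An array stood below the rest of its group for Eef2 (7.17 in G-MDSC 1, others 10.55 to 10.95), H2bc6 (10.89 in G-MDSC 1, others 11.18 to 11.19) and Selp (9.83 in G-MDSC 1, others 10.56 to 10.61). The same held, below the rest, for the list mean of macrophage and monocyte markers (8.89 in G-MDSC 1, others 9.29 to 9.32).

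The other G-MDSC that stood off were G-MDSC 2 and 4. An array stood above the rest of its group for Adam23 (9.59 in G-MDSC 4, others 8.72 to 8.78), Ccl9 (11.95 in G-MDSC 4, others 11.35 to 11.38) and Cybc1 (12.09 in G-MDSC 4, others 11.88 to 11.91). The same held, above the rest, for Eno3 (10.14 in G-MDSC 4, others 9.09 to 9.20), Esam (7.68 in G-MDSC 4, others 7.28 to 7.29) and H2ac18 (10.27 in G-MDSC 4, others 5.66 to 5.67). An array stood below the rest of its group for Ier3 (14.35 in G-MDSC 2, others 14.65 to 14.70), Junb (15.81 in G-MDSC 2, others 15.98 to 16.01) and Stfa2 (13.94 in G-MDSC 4, others 14.60 to 14.73). The same held, below the rest, for Stfa3 (6.77 in G-MDSC 4, others 6.92 to 6.94).

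Within NN the arrays that stood off differed from gene to gene. An array stood above the rest of its group for Anxa1 (14.31 in NN 7, others 13.71 to 13.94), Cd14 (10.53 in NN 4, others 9.94 to 10.16) and Gfi1 (9.68 in NN 1, others 9.22 to 9.42). The same held, above the rest, for Il6ra (10.48 in NN 3, others 9.90 to 10.12). An array stood below the rest of its group for Asns (11.31 in NN 4, others 11.50 to 11.60), Ccl8 (6.18 in NN 3, others 6.50 to 6.69) and Cebpe (13.47 in NN 4, others 13.57 to 13.65). The same held, below the rest, for Cxcr4 (12.94 in NN 6, others 13.27 to 13.47), Epor (8.15 in NN 7, others 8.37 to 8.49) and H2ac18 (5.74 in NN 6, others 9.79 to 10.75).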

How the results depend on the processing

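The number of called probes was 7416 over all 11 arrays and 4522 within the 6 arrays of high background, where fewer arrays enter. Under every other alternative it stayed within 1.5 times, from 5741 with the background level as a block to 9518 with array weights, and it ranged from 6558 to 7985 as each array was left out. Probes over 1.7-fold apart numbered 2836, and 2573 to 3600 under the alternatives. With median scaling in place of the quantile step, 63.0% of called probes were higher, against 50.5%, and of those over 1.7-fold 64.1% against 49.2%, and the median over all probes was 0.07. Most members were higher in 12 function lists, 7 within the arrays of high background, and 11 to 16 as each array was left out. That count was 18 with median scaling and 8 with all 15 arrays in 1 model. Most were lower in 8 lists, but in 4 with median scaling, with all 15 arrays in 1 model, with the methods' analysis of variance or within the arrays of high background, and in 6 to 9 as each array was left out. The cause was not tested. In 10 lists the larger of the higher and lower counts turned with median scaling.

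Samples with the same replicate number did not deviate together (correlations of 0.25, -0.31, 0.00 and 0.10), and a replicate block gave 7385 called probes and 2990 over 1.7-fold, and ended the calls of 4 named genes. Of 259 called genes named here, 231 kept their call and direction under all alternatives, and the arrays of high background ended most of the calls that were lost (23). Clec4b1 had 1.15 by the median over its probes (adjusted p = 0.00320), against a fall by its brightest probe. Within the arrays of high background without G-MDSC 1, an alternative added with the data in view, Pcna had a difference of -0.59 (adjusted p = 0.00105), against 0.09 over all 11 arrays, and Scd1 one of -1.05 (adjusted p = 1.97e-05). Scd1 did not pass over all 11 arrays, at 0.29, and ranged from -0.90 without G-MDSC 1 (adjusted p = 9.36e-06) to 0.71 without G-MDSC 2, while C5ar1 passed without G-MDSC 1, at 1.31 (adjusted p = 0.00155).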

Other observations

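G-MDSC 1 differed from the other G-MDSC in more than its lymphocyte markers. Of the 625 genes over 2-fold from the mean of the other 3 arrays, 421 were higher and 204 lower in G-MDSC 1. The genes named here were chosen after their values were seen. Scd1, a fatty acid desaturase, had 12.13 in G-MDSC 1 and 7.32 to 7.49 in G-MDSC 2 to 4, with 7.96 to 8.56 in NN. Thy1, a surface protein of T cells, had 11.04 and 6.07 to 6.87 in the same arrays, with 6.52 to 6.84 in NN. On the lower side, Eef2, the elongation factor of translation, had 7.17 in G-MDSC 1 and 10.55 to 10.95 in G-MDSC 2 to 4, with 9.41 to 11.03 in NN, and C5ar1, the receptor for complement C5a, had 8.17 and 10.35 to 10.91, with 8.73 to 10.25 in NN. No gene list was given a test on these values.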
